A study of Mus musculus with 69 samples.

Results

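The endothelin and nitric oxide genes comprised the 9 rows of the count table that carry the symbols Edn1, Edn2, Edn3, Ece1, Ednra, Ednrb, Nos1, Nos2 and Nos3, out of 24411 genes. The rows were taken by symbol, but the set was chosen with earlier results of these data known. All 9 had enough reads to enter the tests. The study labelled newly made RNA in the mouse kidney in vivo: Uprt, a uracil phosphoribosyltransferase of Toxoplasma gondii placed at the Rosa26 locus, becomes active in cells with Cre and makes them take up injected 4-thiouracil (4-TU), so that their RNA can be biotinylated and pulled down. Of 69 libraries, 48 were such pulldowns and 21 were total kidney RNA of control mice, all of 4-TU-treated animals (430 mg/kg, 4 hours before dissection). The genotypes were Hoxb7Cre;UPRTf/+, in which Cre marks the collecting duct, and Atp6b1v1Cre;UPRTf/+, in which it marks intercalated cells, cells with both principal and intercalated features, and, by the study's account, some scattered interstitial cells. Both genotypes were sampled as Control, as iAKI (both renal pedicles clamped for 10 minutes, with 4-TU given 24 hours later) and as vAKI (72 hours without water and without food before labelling, so that volume depletion and fasting cannot be told apart). The injury comparisons used mice of 5.5 months. Among males there were 4 Control, 4 iAKI and 3 vAKI libraries with Hoxb7Cre and 4, 3 and 4 with Atp6b1v1Cre, and among females 4, 3 and 4 with Hoxb7Cre and 4, 3 and 3 with Atp6b1v1Cre. The comparisons of control RNA pools used 10 Hoxb7Cre pulldowns, 11 Atp6b1v1Cre pulldowns and 21 total RNA libraries. Those of 3 months were 2 pulldown and 2 total RNA libraries of female Hoxb7Cre mice, and 3 and 3 of male Atp6b1v1Cre mice. Pulldown and total RNA may come from the same mice, which the labels do not pair, and the fit treated all these libraries as independent.

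Endothelins are short vasoactive peptides encoded by Edn1, Edn2 and Edn3. They are cut from larger precursors, in a last step by the endothelin-converting enzyme encoded by Ece1, and act on 2 receptors, of which Ednra mediates contraction of vascular smooth muscle and Ednrb, found on endothelium and in the collecting duct, promotes nitric oxide release and clears the peptide. Nitric oxide is made from arginine by the neuronal, inducible and endothelial synthases encoded by Nos1, Nos2 and Nos3. In the collecting duct, endothelin 1 acting on the B receptor, with nitric oxide downstream, restrains salt and water reabsorption.

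In the mm10 (GRCm38) assembly, the ligand genes Edn1, Edn2 and Edn3 lie on chromosome 13 (42301476 to 42307990, plus strand), chromosome 4 (120161206 to 120167360, plus strand) and chromosome 2 (174760619 to 174784042, plus strand). Ece1 lies on chromosome 4 (137862237 to 137965229, plus strand). The receptor genes Ednra and Ednrb lie on the minus strand of chromosome 8 (77663031 to 77724464) and chromosome 14 (103814625 to 103844402). The synthase genes lie on the plus strand, Nos1 on chromosome 5 (117781032 to 117958840), Nos2 on chromosome 11 (78920787 to 78960254) and Nos3 on chromosome 5 (24364810 to 24384474). Nos3 overlaps its neighbours: 7.12% of its exonic bases are also exonic in Atg9b on the opposite strand and 25.2% in the antisense gene Gm15587. Reads were counted with the default settings of HTSeq, which take strand into account, but the library kit is not named as one that marks strand, so reads of Nos3 and of these neighbours may not be separated in the shared stretch.

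Promoter sequences are shown for the ligand and the 2 receptors that rose together in the strongest response described below. They run from 250 bases before to 50 bases after a RefSeq transcript start (GRCm38.p6) and read along the gene, and 7 of the 9 members had such an entry. In the Edn1 promoter (chr13:42301226-42301525, plus strand) capitals mark a GATA motif (AGATAA) and a hypoxia response core (ACGTG), both on the reverse strand, so printed as TTATCT and CACGT. The Ednra (chr8:77724403-77724702, minus strand) and Ednrb (chr14:103843652-103843951, minus strand) promoters are printed for comparison and hold none of the motifs searched, so they carry no capitals.
Edn1: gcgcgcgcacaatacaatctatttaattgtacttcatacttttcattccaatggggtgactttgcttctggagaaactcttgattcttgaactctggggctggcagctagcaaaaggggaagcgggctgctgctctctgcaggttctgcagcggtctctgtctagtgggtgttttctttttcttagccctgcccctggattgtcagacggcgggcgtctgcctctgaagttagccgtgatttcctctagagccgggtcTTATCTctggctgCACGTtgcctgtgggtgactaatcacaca
Ednra: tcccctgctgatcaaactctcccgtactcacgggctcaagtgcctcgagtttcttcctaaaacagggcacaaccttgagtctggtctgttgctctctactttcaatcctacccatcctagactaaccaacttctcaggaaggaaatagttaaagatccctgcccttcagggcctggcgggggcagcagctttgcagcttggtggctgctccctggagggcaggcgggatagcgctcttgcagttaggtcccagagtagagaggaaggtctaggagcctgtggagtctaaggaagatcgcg
Ednrb: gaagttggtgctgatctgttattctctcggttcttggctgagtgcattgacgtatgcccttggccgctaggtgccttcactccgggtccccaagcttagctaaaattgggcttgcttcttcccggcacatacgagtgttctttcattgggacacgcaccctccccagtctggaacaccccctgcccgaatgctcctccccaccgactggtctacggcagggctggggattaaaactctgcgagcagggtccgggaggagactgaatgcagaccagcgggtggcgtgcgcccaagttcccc
Of 32851 promoters of this length, 11.2% held AGATAA, 19.6% ACGTG, 7.81% the AP-1 motif TGANTCA and 13.6% TATAAA on either strand. The Edn1 GATA and hypoxia letters begin 9 and 22 bases after the transcript start, and these matches describe the letters only. Among the other members, ACGTG was also found in 1 promoter of Ece1.

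Total counts per library ranged from 12618062 to 30305464 (median 20868430). Collecting duct identity was checked in the control mice: 5 of 8 principal cell genes and 4 of 7 intercalated cell genes were higher in Hoxb7Cre pulldowns than in total RNA, and 1 principal cell gene was lower. In Atp6b1v1Cre pulldowns 4 of 7 intercalated cell genes were higher and none lower, and of the 8 principal cell genes 2 were higher and 3 lower. The pulldowns still held RNA of other cells. All 15 genes of an endothelial list had reads in each group of libraries, with summed levels of 208 to 426 CPM (counts scaled to library size after TMM normalization) in Hoxb7Cre control pulldowns against 639 to 1192 in total RNA. The library numbers in the labels fall into 3 series, called A, B and C here, which the labels do not describe as batches. All iAKI and vAKI Hoxb7Cre libraries were of series A, whereas the male Hoxb7Cre controls were 2 of series A and 2 of series B and the female ones 1 of series A, 1 of B and 2 of C. A library that stood apart was the female vAKI Atp6b1v1Cre replicate 5, with an endothelial sum of 115 CPM. It had the fewest counts of all libraries (12618062) and was the only series B library among the female vAKI Atp6b1v1Cre ones. The labels do not say which libraries came from separate mice, so p-values measure the spread between these libraries. In such bulk samples, fewer cells of a type and less RNA per cell cannot be told apart.

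In control kidneys, Ednrb was the most abundant member per kilobase of exon (CPM per kb, mean ± SD), at 15.1 ± 2.94 in the 10 Hoxb7Cre pulldowns. Ece1 followed at 7.76 ± 1.38. Nos3 (2.80 ± 1.13), Edn3 (2.08 ± 1.25), Edn1 (1.84 ± 1.27), Ednra (0.425 ± 0.117) and Nos1 (0.298 ± 0.0987) came next, each overlapping its neighbour in the order, whereas Ednrb, Ece1 and Nos3 did not overlap each other. Nos2 (0.0632 ± 0.0303) and Edn2 (0.0192 ± 0.0261) were at the bottom and overlapped each other but not Nos1. The 11 Atp6b1v1Cre pulldowns gave the same order. In the 21 total RNA libraries Ece1 (17.1 ± 2.35 CPM per kb) overlapped Ednrb (17.3 ± 4.19), and Edn1 stood above Edn3, with overlapping libraries. The 2 members at the bottom rested on few reads: no library held more than 4 reads of Edn2, and no pulldown more than 17 of Nos2.

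**Figure D1:**
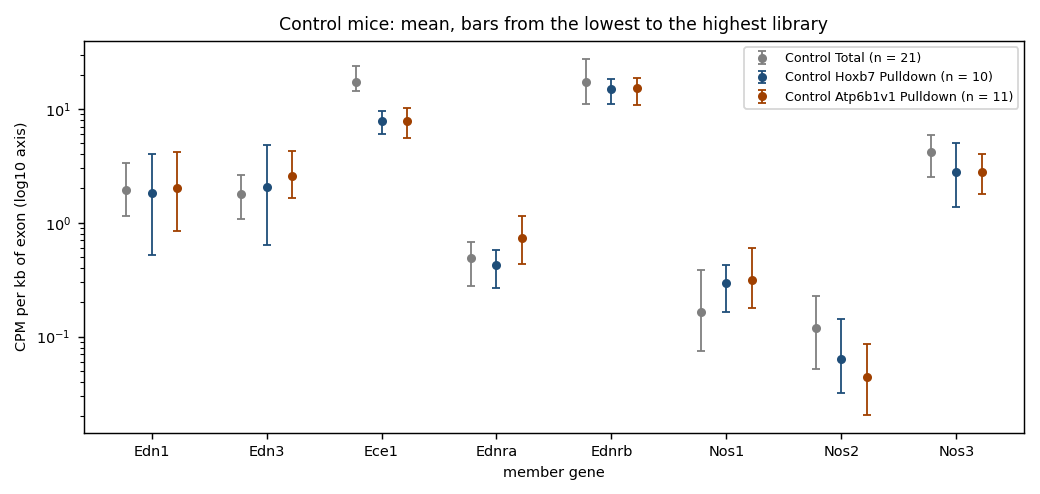
Level of each member but Edn2 in control mice in CPM per kb of exon (log10 axis), with points at the mean and bars from the lowest to the highest library of the Hoxb7Cre pulldowns (n = 10), Atp6b1v1Cre pulldowns (n = 11) and total RNA (n = 21). Ednrb leads in each pool (15.1 CPM per kb in Hoxb7Cre pulldowns), and the pulldown libraries of Ece1 sit below those of total RNA without overlap.

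The first comparison asked which members were enriched in or depleted from the labelled collecting duct RNA of uninjured mice. The converting enzyme Ece1 was lower in both pulldowns. It stood at 41.2 ± 7.32 CPM in Hoxb7Cre pulldowns (SD, n = 10), 41.9 ± 7.82 in Atp6b1v1Cre pulldowns (n = 11) and 90.7 ± 12.4 in total RNA (n = 21), with no overlap: the highest pulldown library held 53.6 CPM and the lowest total RNA library 76.6. The log2 fold change was -1.10 (SE 0.09) and -1.06 (SE 0.09), with adjusted p = 9.45e-15 and 1.04e-14 by the edgeR quasi-likelihood (QL) test, adjusted by Benjamini-Hochberg over the genes tested, which also gave the other adjusted p-values here unless another tool is named. A member was called where its adjusted p lay below 0.05 and its log2 fold change was 1 or more in either direction. The neuronal synthase Nos1 ran the other way, with 3.32 ± 1.10 CPM in Hoxb7Cre and 3.52 ± 1.34 in Atp6b1v1Cre pulldowns against 1.85 ± 0.787 in total RNA. Its log2 fold change was 0.82 (adjusted p = 1.26e-05, under the fold required for a call) and 1.05 (adjusted p = 6.39e-08). The inducible synthase Nos2 was lower, at 0.279 ± 0.134 and 0.196 ± 0.0912 CPM against 0.528 ± 0.193, with log2 fold changes of -0.89 (adjusted p = 0.000676) and -1.34 (adjusted p = 2.4e-06), on few reads. Thus 1 of 9 members passed the call with Hoxb7Cre, where 32.5% of all genes tested did, and 3 of 9 with Atp6b1v1Cre, where 27.7% did. The median log2 fold change over the 8 members other than Edn2 was -0.21 and 0.05, and that over all genes 0.11 in both. Nos3 was lower in both pulldowns but under the fold required (-0.61, adjusted p = 0.000248, with Hoxb7Cre and -0.49, adjusted p = 0.00175, with Atp6b1v1Cre). Also under that fold, Ednra (0.67, adjusted p = 6.11e-06) and Edn3 (0.56, adjusted p = 0.00704) were higher in Atp6b1v1Cre pulldowns. Among males alone, 2 members passed with Hoxb7Cre, Edn1 (-1.0, adjusted p = 0.00748) and Nos3 (-1.0, adjusted p = 0.000226), and Ece1 narrowly did not (-0.96). The endothelial list was lower in the pulldowns, with 11 of 15 genes called for Hoxb7Cre and 10 of 15 for Atp6b1v1Cre. Its part in the Nos3 and Ednrb levels was not tested.

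Between the pulldowns of uninjured mice, 0 of 9 members passed the call, against 4.11% of all genes. A single member, Ednra, had an unadjusted p under 0.05, and DESeq2 called 0. Ednra stood at 2.33 ± 0.639 CPM with Hoxb7Cre (n = 10) and 4.02 ± 1.17 with Atp6b1v1Cre (n = 11), a log2 fold change of 0.90 (SE 0.15, adjusted p = 1.86e-05) that passed the fold among males alone (1.2, adjusted p = 0.000907). Edn1 also passed among males alone, at 1.28 (adjusted p = 0.0105) against 0.43 with both sexes. Markers of other cells moved along, since 6 of 13 macrophage and granulocyte genes and 3 of 10 smooth muscle, pericyte and fibroblast genes were higher with Atp6b1v1Cre. Their part in the Ednra difference was not tested.

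The main injury comparisons were made in males, against the same Control libraries for iAKI and vAKI. In Hoxb7Cre pulldowns, 6 of 9 members passed the call after volume depletion, where 16.4% of all genes did: Edn1, Edn2, Ednra, Ednrb and Nos3 rose and Edn3 fell. The median log2 fold change over the 8 members other than Edn2 was 1.35, and over all genes 0.00.

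**Figure D2:**
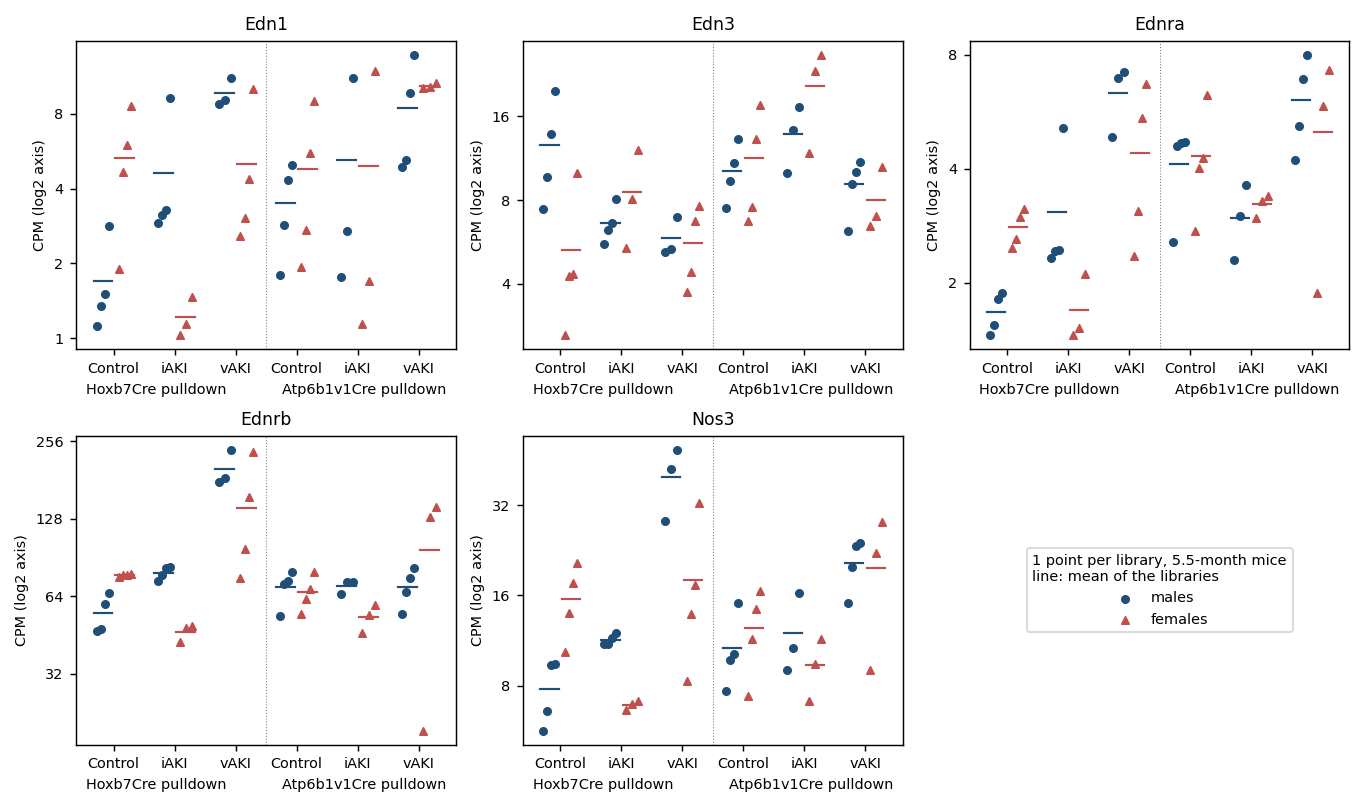
CPM of Edn1, Edn3, Ednra, Ednrb and Nos3 (log2 axes) in each pulldown library of 5.5-month mice, by driver, treatment and sex, with lines at the group means. In male Hoxb7Cre pulldowns the vAKI libraries lie above the controls for Edn1, Ednra, Ednrb and Nos3 (28.3 to 48.9 against 5.67 to 9.48 CPM for Nos3) and below them for Edn3.

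The ligands went in different directions. Edn1, which encodes the main renal endothelin, stood at 1.11, 1.35, 1.5 and 2.81 CPM in the 4 controls and at 8.80, 9.08 and 11.1 CPM in the 3 vAKI libraries. The groups did not overlap, and the log2 fold change was 2.52 (SE 0.54, adjusted p = 0.000925), or 5.73-fold. Within series A it was 2.98 (adjusted p = 4e-05). Edn3, whose peptide prefers the B receptor, stood at 7.41, 9.65, 13.9 and 19.8 CPM in the controls and at 5.21, 5.34 and 6.95 CPM after volume depletion. It was lower in each vAKI library than in each control, with a log2 fold change of -1.11 (SE 0.28, adjusted p = 0.00335). Without Control replicate 3 the value was -0.82, under the fold required for a call. Edn2 had 0 reads in each control and 0, 2 and 4 reads in the vAKI libraries, so it passed the call on 6 reads and no fold is given. The converting enzyme Ece1 was not called, at 37 to 50.5 CPM in controls and 43.2 to 48.7 after volume depletion (log2 fold change 0.08, SE 0.13, adjusted p = 0.721).

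Both receptors rose. Ednra stood at 1.45, 1.55, 1.81 and 1.88 CPM in the controls and at 4.85, 6.95 and 7.20 after volume depletion, a log2 fold change of 1.92 (SE 0.30, adjusted p = 3.05e-05). Ednrb, the more abundant receptor, stood at 46.9, 47.5, 59.8 and 65.7 CPM in the controls and at 177, 184 and 236 CPM after volume depletion. Its log2 fold change was 1.86 (SE 0.15, adjusted p = 3.51e-08), or 3.64-fold. The lowest vAKI library was far above the highest control for both receptors, and within series A the values were 1.96 and 1.83.

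Among the synthases, the endothelial one changed most. Nos3 stood at 5.67, 6.61, 9.35 and 9.48 CPM in the controls and at 28.3, 42.4 and 48.9 CPM after volume depletion. The groups did not overlap, and the log2 fold change was 2.36 (SE 0.25, adjusted p = 4.06e-07), or 5.14-fold. The overlapping opposite-strand gene Atg9b was also called higher (2.57, adjusted p = 0.000603). It had 3 to 7 reads per control and 23 to 40 per vAKI library, where Nos3 had 117 to 222 and 562 to 1352. In male Atp6b1v1Cre pulldowns Atg9b was called higher after volume depletion too (1.69, adjusted p = 0.0314). Its part in the Nos3 counts was not tested. Nos1 stood at 1.92 to 4.00 CPM in the controls and 3.32, 3.91 and 7.07 CPM after volume depletion, which overlapped, with a log2 fold change of 0.84 (SE 0.29, adjusted p = 0.0295) short of the fold required. It passed without Control replicate 2 (1.10) or without vAKI replicate 4 (1.04). Nos2 had 3 to 6 reads per control and 6 to 12 per vAKI library (0.72, adjusted p = 0.411).

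Markers of endothelium moved with these members. After volume depletion 7 of 15 endothelial genes were called higher and none lower in male Hoxb7Cre pulldowns (median log2 fold change 0.95), and none of the 15 was at 0 in a whole group. Their summed level was 208 to 364 CPM in controls and 521 to 699 CPM after volume depletion. Nos3 as a percentage of that sum was 1.67% to 3.47% in controls and 5.43% to 7.00% after volume depletion, and Ednrb 14.0% to 22.5% and 26.4% to 37.6%, neither with overlap. Over the same libraries 5 of 8 principal cell genes and 4 of 7 intercalated cell genes fell, the principal cell sum going from 5716 to 7992 CPM in controls to 3351 to 3937 CPM. In the smooth muscle, pericyte and fibroblast list, 3 of 10 genes were higher. The part of these cell markers in the changes of the members was not tested.

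**Figure D3:**
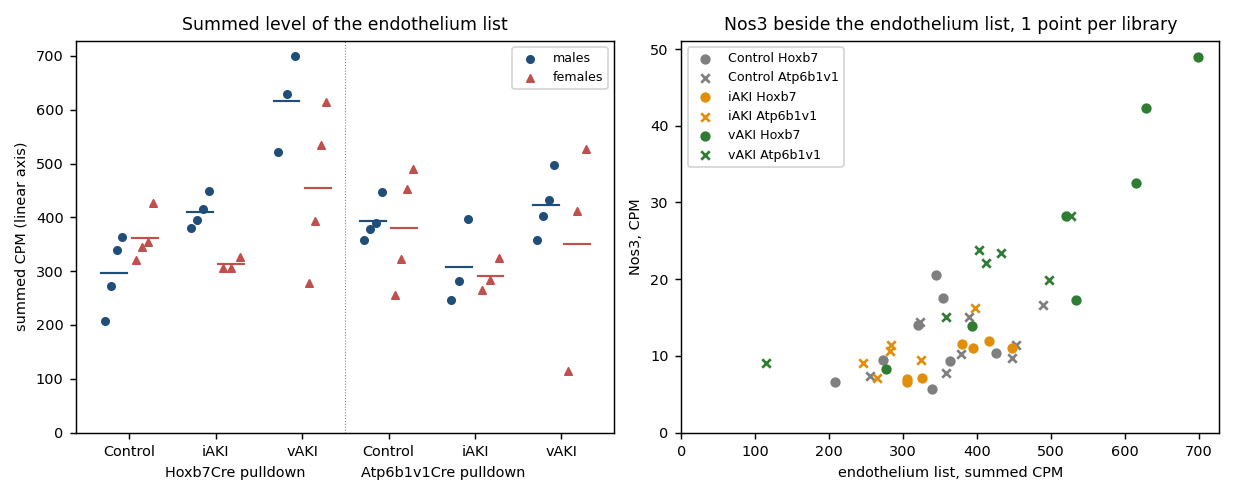
Left, summed CPM of the 15 endothelial genes in each pulldown library of 5.5-month mice by driver, treatment and sex, with lines at group means. Right, Nos3 (CPM) against that sum, 1 point per library: male Hoxb7Cre vAKI libraries combine endothelial sums of 521 to 699 CPM with Nos3 of 28.3 to 48.9 CPM.

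After ischemia in male Hoxb7Cre pulldowns, 0 of 9 members passed the call, against 2.3% of all genes, and the median over 8 members was 0.36. By edgeR, 5 members had an unadjusted p under 0.05, and DESeq2 called 1, Edn1 (1.45, adjusted p = 0.0326). Edn1 stood at 2.90, 3.12, 3.29 and 9.25 CPM after ischemia, each above the highest control (2.81), with a log2 fold change of 1.47 (SE 0.52, adjusted p = 0.0959). The highest of these, iAKI replicate 5, was also the highest for Ednra, whose iAKI libraries held 2.33, 2.42, 2.45 and 5.12 CPM, above the controls (0.89, adjusted p = 0.0639). Edn3 stood at 5.55, 6.23, 6.61 and 8.09 CPM, overlapping the controls (-0.92, adjusted p = 0.0327). Ednrb at 73.5, 77, 82.6 and 82.8 CPM (0.54, adjusted p = 0.0279) and Nos3 at 11.0, 11.0, 11.5 and 12.0 CPM (0.56, adjusted p = 0.156) lay above each control but changed less than the call required. These results depended on the library series. Within series A, Edn1 (1.90, adjusted p = 0.00985) and Edn3 (-1.35, adjusted p = 0.00098) passed, and with the series as a covariate Edn1 (2.20), Edn3 (-1.05) and Ednra (1.04) did. Single libraries also decided calls: Edn3 passed without Control replicate 4 (-1.13), Control replicate 5 (-1.03) or iAKI replicate 6 (-1.03), and Edn1 without the Atp6b1v1Cre iAKI replicate 5 (1.45, adjusted p = 0.0402). Ece1, Nos1 and Nos2 had log2 fold changes of 0.14, 0.05 and 0.18. No endothelial gene was called, and their sum was 380 to 448 CPM, above each control, while 4 of 10 smooth muscle, pericyte and fibroblast genes and 2 of 13 macrophage and granulocyte genes were higher. In the same libraries 3 of 8 principal cell genes were lower (median log2 fold change -0.95), as was 1 of 7 intercalated cell genes. The part of these cells was not tested.

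**Figure D4:**
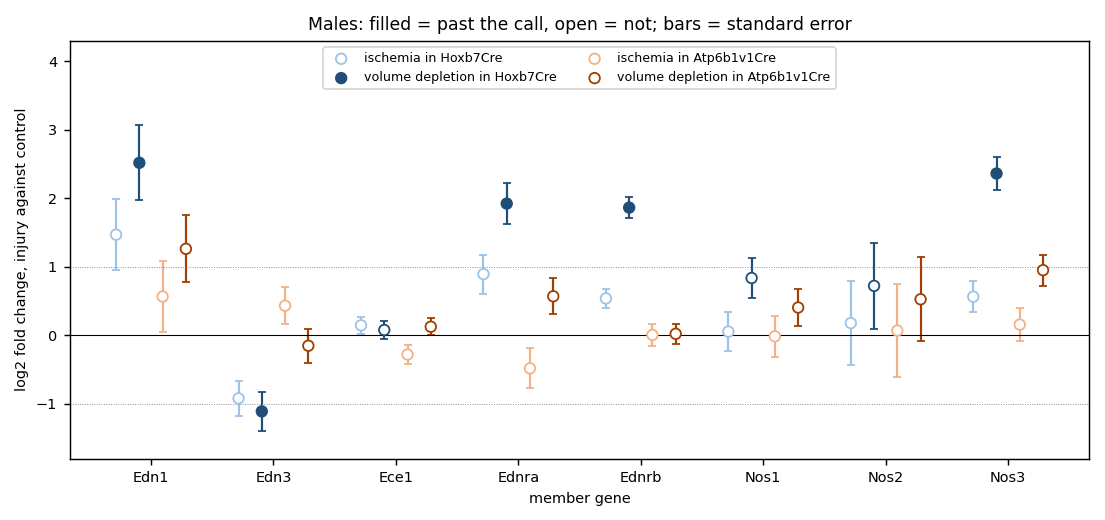
Log2 fold change of each member but Edn2 against control in males, by driver and stimulus, with bars of 1 standard error, filled where the member passed the call. The filled points belong to volume depletion in Hoxb7Cre pulldowns, from -1.11 for Edn3 to 2.52 for Edn1.

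The stimuli were then compared directly in males. Volume depletion exceeded ischemia in Hoxb7Cre pulldowns for Edn2, Ednra, Ednrb and Nos3, so 4 of 9 members passed where 14.7% of all genes did, Edn2 on few reads. The log2 difference was 1.33 (SE 0.15, adjusted p = 1.46e-06) for Ednrb, 1.8 (SE 0.24, adjusted p = 7.64e-06) for Nos3 and 1.03 (SE 0.29, adjusted p = 0.00732) for Ednra. The vAKI libraries lay above the iAKI libraries for Ednrb (177 to 236 against 73.5 to 82.8 CPM) and Nos3 (28.3 to 48.9 against 11.0 to 12.0 CPM), whereas for Ednra the lowest vAKI library (4.85) lay below the highest iAKI library (5.12). The Ednra difference was under the fold required when any one of iAKI replicates 4, 6 or 7 or vAKI replicates 4 or 6 was left out (0.92 to 0.98). For Edn1 the difference was 1.05 (adjusted p = 0.124), and it passed without iAKI replicate 5 (1.65, adjusted p = 0.0188). Edn3 was at -0.19 and did not pass. In Atp6b1v1Cre pulldowns the same difference passed for 1 of 9 members, where 11.6% of all genes did. It was Ednra, at 4.21, 5.18, 6.90 and 7.99 CPM after volume depletion against 2.29, 3.01 and 3.61 CPM after ischemia, without overlap (1.05, SE 0.30, adjusted p = 0.00935). That call was lost without iAKI replicate 1 (0.87), vAKI replicate 1 (0.98) or vAKI replicate 7 (0.87), and without iAKI replicate 5 the count was 3.

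In male Atp6b1v1Cre pulldowns no member passed the call after either stimulus. After ischemia 0 of 9 passed against 2.82% of all genes, with 0 at an unadjusted p under 0.05 and 0 by DESeq2, and the median over 8 members was 0.04. Ednrb stood at 53.4, 71.4, 73.2 and 79.2 CPM in controls and 65.1, 72.3 and 72.4 CPM after ischemia (0.00). Ednra stood at 2.29 to 3.61 CPM against 2.55 to 4.70 in controls (-0.48), and Edn1 reached 11.1 CPM in iAKI replicate 5 but 1.76 and 2.69 in the other libraries (0.57, adjusted p = 0.557). That replicate was the only series B library of its group. Edn1 was also higher in series B than in series A among male controls (4.33 to 4.99 against 1.8 to 2.86 CPM). In female Atp6b1v1Cre iAKI libraries it held 11.9 CPM in series B against 1.14 to 1.69 in series A. After volume depletion 0 of 9 passed against 5.15% of all genes, with 3 at an unadjusted p under 0.05, and the median over 8 members was 0.46. Nos3 came nearest. It stood at 7.71, 9.73, 10.2 and 15.1 CPM in controls and 15.1, 19.9, 23.4 and 23.9 CPM after volume depletion, a log2 fold change of 0.95 (SE 0.23, adjusted p = 0.00738), the lowest vAKI library and the highest control nearly touching. It passed within series A (1.01), without Control replicate 11 (1.18) and without vAKI replicate 1 (1.07). Edn1 stood at 1.8, 2.86, 4.33 and 4.99 CPM in controls and 4.90, 5.23, 9.72 and 13.8 CPM after volume depletion (1.26, SE 0.49, adjusted p = 0.0874). DESeq2 called it (1.28, adjusted p = 0.0398), as did edgeR with the series as a covariate (1.26, adjusted p = 0.00754), without vAKI replicate 1 (1.45) and without iAKI replicate 5 (1.26). Ednrb stood at 54.7, 66.5, 75.1 and 82 CPM, within the range of the controls apart from the highest (0.02, adjusted p = 0.991). Ednra (0.57), Edn3 (-0.15), Nos1 (0.40) and Ece1 showed no call either. The endothelial list had 2 of 15 genes higher and sums of 358 to 498 CPM against 358 to 447 CPM in controls, and Nos3 made up 3.99% to 5.92% of that sum against 2.15% to 3.88%.

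The response to volume depletion differed between the drivers for 2 of 9 members, Ednrb and Nos3, where 2.93% of all genes differed. For Ednrb the log2 fold change was 1.86 with Hoxb7Cre and 0.02 with Atp6b1v1Cre, a difference of 1.84 (SE 0.21, adjusted p = 6.05e-05). For Nos3 it was 2.36 and 0.95, a difference of 1.41 (SE 0.33, adjusted p = 0.0162). The Nos3 call rested on single libraries, since it was lost without Hoxb7Cre vAKI replicate 6 (1.24, adjusted p = 0.0609) or 7 (1.36, adjusted p = 0.0515). Ednra differed by 1.35 (adjusted p = 0.0537), which DESeq2 called (1.37, adjusted p = 0.015). It also passed when Control Atp6b1v1Cre replicate 6 (1.53), iAKI Atp6b1v1Cre replicate 5 (1.36), iAKI Hoxb7Cre replicate 5 (1.36) or vAKI Atp6b1v1Cre replicate 7 (1.52) was left out. With both sexes together neither Ednrb (1.04, adjusted p = 0.202) nor Nos3 (0.38, adjusted p = 0.732) passed. The response to ischemia differed for 2 of 9 members, where 3.49% of all genes differed, although no member passed after ischemia with either driver alone. Edn3 was lower by comparison in Hoxb7Cre pulldowns (-1.35, SE 0.37, adjusted p = 0.0263): in Atp6b1v1Cre pulldowns it stood at 10.0, 14.3 and 17.3 CPM after ischemia against 7.47 to 13.2 CPM in controls. Ednra was higher by comparison (1.38, SE 0.41, adjusted p = 0.0414). The Edn3 call was lost when any one of 6 of the 22 libraries was left out and the Ednra call with any one of 9, and both were lost with both sexes together. The treated Hoxb7Cre libraries were all of series A. The male Atp6b1v1Cre libraries were 2 of series A and 2 of B after volume depletion, and 2 of A and 1 of B after ischemia. The driver differences were not fitted with the series as a covariate or within series A.

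In females no member passed against control in any of the 4 injury comparisons with all libraries. In their own edgeR fit, 0 of 9 members passed after volume depletion in Hoxb7Cre pulldowns, where 0.0992% of all genes did, with 2 at an unadjusted p under 0.05. Edn1 stood at 1.89, 4.67, 5.98 and 8.60 CPM in female controls and at 2.57, 3.05, 4.36 and 10.1 CPM after volume depletion (-0.08, SE 0.60). Nos3 stood at 10.4, 14.0, 17.6 and 20.6 CPM in controls and 8.29, 13.9, 17.3 and 32.5 CPM after volume depletion (0.20, SE 0.36). Both groups overlapped for each gene. Ednrb was uniform in the controls, at 76, 77.1, 77.4 and 77.7 CPM, and spread widely after volume depletion, at 75.2, 97.8, 155 and 232 CPM (0.86, SE 0.38, adjusted p = 0.58). Ednra stood at 2.46 to 3.12 CPM in controls and 2.35 to 6.69 CPM after volume depletion (0.65), and Edn3 at 2.62 to 9.98 and 3.75 to 7.60 CPM (0.09). When males and females were fitted together, with sex as a term, 3 members passed, Ednra (1.21), Ednrb (1.31) and Nos3 (1.18), and Edn1 did not (1.00, adjusted p = 0.182). Set directly against ischemia in females, volume depletion was higher for Ednrb in Hoxb7Cre pulldowns (1.58, SE 0.43, adjusted p = 0.044), whereas Edn1 (2.04, adjusted p = 0.114), Ednra (1.36, adjusted p = 0.0624) and Nos3 (1.37, adjusted p = 0.0589) missed the threshold.

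The difference between the sexes in the response to volume depletion passed for 3 of 9 members in Hoxb7Cre pulldowns, where 10.8% of all genes passed. The change of Edn1, females minus males, was -2.60 on the log2 scale (SE 0.87, adjusted p = 0.0373) and that of Nos3 -2.17 (SE 0.46, adjusted p = 0.00316), and Edn2 passed on few reads. Ednra (-1.28, adjusted p = 0.0584), Ednrb (-1.01, adjusted p = 0.11) and Edn3 (1.2, adjusted p = 0.102) missed the threshold, and DESeq2 called Ednra (-1.30, adjusted p = 0.0347). The Edn1 call was lost when any one of 12 of the 43 libraries was left out (highest adjusted p 0.0907, without Control replicate 9), and that of Nos3 with none of them. The Hoxb7Cre vAKI libraries were all of series A, and the single female control of that series held 1.89 CPM of Edn1, below each of the 4 female vAKI libraries. With the series as a covariate both calls held (-2.35, adjusted p = 0.0251, for Edn1 and -2.33, adjusted p = 0.00206, for Nos3). Within series A, which leaves 1 female control, neither passed (-1.58, adjusted p = 0.453, and -1.64, adjusted p = 0.285). Each female Hoxb7Cre control lay above each male one for Ednra (2.46 to 3.12 against 1.45 to 1.88 CPM), Ednrb (76 to 77.7 against 46.9 to 65.7 CPM) and Nos3 (10.4 to 20.6 against 5.67 to 9.48 CPM). How many of all genes separate in this way was not counted. The controls of the sexes also came from different mixes of series, and the difference was not tested. Endothelial sums were 320 to 426 CPM in female controls and 277 to 615 CPM after volume depletion, and 4 of 15 endothelial genes differed between the sexes in the same direction as Nos3. In the opposite direction, higher in females minus males, were 6 of 8 principal cell genes (median log2 difference 1.34), 3 of 4 thick ascending limb genes (1.52) and 2 of 7 intercalated cell genes. Principal cell sums of female controls ran from 2402 to 7012 CPM, below the male range at their lower end. The part of these markers was not tested.

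**Figure D5:**
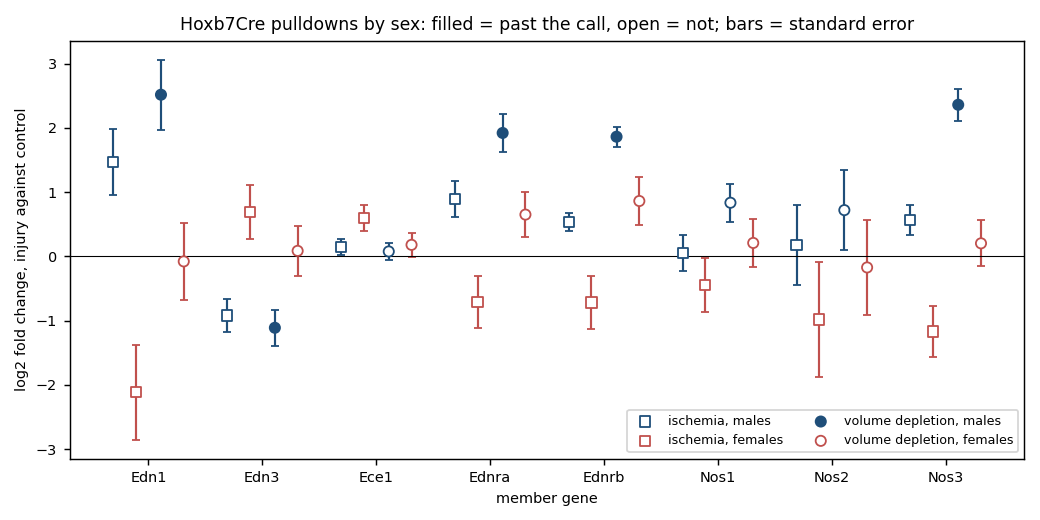
Log2 fold change of each member but Edn2 in Hoxb7Cre pulldowns, by stimulus and sex, with bars of 1 standard error, filled where the member passed the call. Points for Edn1 after ischemia lie at 1.47 in males and -2.12 in females, and no female point is filled.

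After ischemia in Hoxb7Cre pulldowns, Edn1, Ednra, Ednrb and Nos3 lay above each control in males and below each control in females. How many of all genes do the same was not counted. In female Hoxb7Cre pulldowns 0 of 9 members passed, where 2.08% of all genes did, with 3 at an unadjusted p under 0.05. Edn1 stood at 1.03, 1.14 and 1.46 CPM after ischemia, below each female control (1.89 to 8.60 CPM), with a log2 fold change of -2.12 (SE 0.74, adjusted p = 0.0943). Nos3 stood at 6.64, 6.97 and 7.10 CPM, below each control (-1.17, adjusted p = 0.0913), and inside the range of male controls. Ednra at 1.46, 1.52 and 2.11 CPM (-0.71) and Ednrb at 42.4, 48.2 and 49.1 CPM (-0.72) also lay below each female control. Ece1 ran the other way, at 62.2, 64.4 and 65.2 CPM against 33, 39.2, 46.7 and 51.0 CPM (0.60, adjusted p = 0.0837). The sex difference of ischemia, looked at after these values were seen, passed for 4 of 9 members, where 6.98% of all genes passed. They were Edn1 (-3.60, SE 0.95, adjusted p = 0.0162), Ednra (-1.62, SE 0.50, adjusted p = 0.0331), Nos3 (-1.75, SE 0.47, adjusted p = 0.0182) and, higher in females minus males, Edn3 (1.61, SE 0.50, adjusted p = 0.0357). Edn3 stood at 5.39, 8.05 and 12.2 CPM in the female iAKI libraries, overlapping the female controls (2.62 to 9.98 CPM). Ednrb was at -1.27 (adjusted p = 0.0592, DESeq2 -1.26, adjusted p = 0.0357). No member passed without the female iAKI replicate 3, and 1 did without Control replicate 3. When any one library was left out, the call was lost with 1 of the 43 libraries for Edn1, 2 for Nos3, 7 for Ednra and 10 for Edn3. With the series as a covariate 4 members passed, and within series A none did, Edn1 being at -2.54 (adjusted p = 0.288). The single female control of series A, the series of the ischemia libraries, held 1.89 CPM of Edn1, 2.46 of Ednra, 77.4 of Ednrb and 10.4 of Nos3, the lowest of the 4 female controls for Edn1, Ednra and Nos3. Series and ischemia can therefore not be told apart in females beyond that library. Endothelial sums were 306 to 326 CPM after ischemia against 320 to 426 CPM in female controls, and no endothelial gene was called. In the female ischemia libraries 4 of 13 macrophage and granulocyte genes (median log2 fold change 1.36), 1 of 10 smooth muscle, pericyte and fibroblast genes and 1 of 4 thick ascending limb genes were higher. In the sex difference of ischemia, 5 of 8 principal cell genes (median 1.56) and 2 of 4 thick ascending limb genes were higher in females minus males. The part of these markers was not tested.

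In female Atp6b1v1Cre pulldowns 0 of 9 members passed after ischemia (1.15% of all genes) and 0 of 9 after volume depletion (9.89% of all genes), with 0 at an unadjusted p under 0.05 in both. Edn1 was above each control after volume depletion, at 10.2, 10.2 and 10.7 CPM against 1.94, 2.73, 5.54 and 9.02 CPM. The library that stood apart, vAKI replicate 5, held 19.2 CPM of Ednrb, where the other two held 130 and 142 CPM and the controls 54.7 to 79 CPM. Nos3 was at 9.01 CPM there and at 22.1 and 28.2 CPM in the others, against 7.38 to 16.6 CPM in controls, and Ednra at 1.88 against 5.86 and 7.28 CPM. Without that library, which leaves 2 vAKI libraries, both of series A, Ednrb passed the call (1.04, adjusted p = 0.0226). Between the sexes, the responses with Atp6b1v1Cre differed for 0 of 9 members after either stimulus by edgeR, with 0 at an unadjusted p under 0.05 and 0 by DESeq2, and 0% of all genes passed.

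Around the members, 40 genes of endothelin processing, arginine supply, the tetrahydrobiopterin cofactor, synthase partners and cyclic GMP signalling were tested in males. After volume depletion in Hoxb7Cre pulldowns, 6 rose and 2 fell (median log2 fold change over the 40 genes 0.10), where 16.4% of all genes passed. The share of the list that passed was thus close to that of all genes, and the genes below are described singly. The part of endothelial and other cell markers in their changes was not tested. Both genes at the entry of cofactor synthesis rose: Gch1, the rate-limiting enzyme, from 2.70 ± 0.631 CPM in controls (SD, n = 4) to 13.5 ± 5.33 after volume depletion (n = 3), a log2 fold change of 2.32 (adjusted p = 2.72e-06), and its feedback regulator Gchfr from 2.00 ± 0.374 to 4.42 ± 0.465 CPM (1.15). The other 5 of 7 cofactor genes did not pass. Of 8 synthase partners, Nostrin, which traffics the endothelial synthase, rose from 3.94 ± 0.650 to 15.3 ± 1.06 CPM (1.96, adjusted p = 3.94e-06), and Cav1, the caveolar protein that holds it inactive, fell from 118 ± 15.9 to 45.7 ± 3.69 CPM (-1.36, adjusted p = 3.37e-05). Among 11 arginine genes, Arg2, the mitochondrial arginase that competes for the substrate, rose from 22.3 ± 4.68 to 52.0 ± 1.98 CPM (1.22), and the arginine transporter Slc7a3 fell from 3.01 ± 1.14 to 1.30 ± 0.476 CPM (-1.19, adjusted p = 0.0113). The Slc7a3 call was lost without Control replicate 3 (-0.93), vAKI replicate 4 (-1.05, adjusted p = 0.0539) or vAKI replicate 6 (-1.05, adjusted p = 0.0608). Of 9 nitric oxide receptor and cyclic GMP genes, 1 passed, the kinase Prkg1, from 4.05 ± 0.411 to 8.57 ± 0.942 CPM (1.09). Of 5 endothelin-processing genes, 1 passed, Ecel1, a relative of the converting enzyme, with 0 to 1 reads in controls and 3 to 6 after volume depletion, so no fold is given.

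In the other male comparisons few of these 40 genes passed. After ischemia none did in Hoxb7Cre pulldowns (2.3% of all genes), and 1 rose in Atp6b1v1Cre pulldowns (2.82% of all genes), the cytosolic arginase Arg1, from 0.892 ± 0.571 to 4.56 ± 2.06 CPM (2.30, adjusted p = 0.00315). After volume depletion in Atp6b1v1Cre pulldowns (5.15% of all genes), Cav1 fell from 99 ± 22.4 to 44.2 ± 4.05 CPM (-1.15, adjusted p = 0.000547). That call was lost without Control replicate 10 (-0.99). Nostrin rose from 6.57 ± 1.90 to 13.1 ± 4.03 CPM (1.00, adjusted p = 0.00613), a value at the edge of the call that fell below it when any one of several libraries was left out (lowest 0.82). In female Hoxb7Cre pulldowns none of the 40 passed after volume depletion, and after ischemia Arg1 was higher (2.05, adjusted p = 0.0408) and Nostrin lower (-1.44, adjusted p = 0.0497). In female Atp6b1v1Cre pulldowns Arg1 was higher after ischemia (3.05) and volume depletion (2.32), and Cav1 (-1.58) and Ece2 (-1.13), a converting enzyme, were lower after volume depletion. In control mice, 3 were higher and 13 lower in Hoxb7Cre pulldowns than in total RNA, and 4 and 15 in Atp6b1v1Cre pulldowns, including 6 of 7 cofactor genes lower in both, where 32.5% and 27.7% of all genes passed in either direction.

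Across the 48 pulldown libraries, the genes whose log2 levels followed each member most closely were found among 13930 genes, as a description, since the points share libraries and depth. For Nos3 they were S1pr1 (Pearson r = 0.945), Robo4 (0.943) and Rasip1 (0.937), and for Ednrb Ppap2a (0.903), Cdh5 (0.896) and Entpd1 (0.886). Robo4 and Cdh5 belong to the endothelial list above. For Edn1 they were Kctd5 (0.904), Kif7 (0.900) and Orc6 (0.898), and for Ednra 9430020K01Rik (0.875), Rerg (0.862) and Slc10a6 (0.860). Edn3 was followed less closely, by Rcan2 (0.818), Aqp6 (0.780), an intercalated cell aquaporin, and Ucp2 (0.777).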

How the data were processed

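The authors deposited one table of raw read counts per gene for 69 mouse kidney libraries, made with the Illumina TruSeq RNA prep kit. The submitters' processing notes name CASAVA 1.8.2, Trimmomatic 0.36, STAR 2.5.3a, HTSeq 0.6.1p2 and the mm10 build. Per the study's methods HTSeq ran with default settings, which take strand into account; the kit is not named as one that marks strand. Every column was mapped to a sample by its label.

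Groups followed the titles, with sex and age from the labels. The 21175 genes that reached 2 counts summed over all libraries were tested. Injury effects were fitted with edgeR 4.0.16 (R 4.3.3, TMM, quasi-likelihood test, Benjamini-Hochberg adjustment over all genes tested) on 22 male pulldowns of 5.5 months and, separately, on 21 female ones. Sex differences used all 43, and baseline comparisons 42 control libraries with sex as a covariate. Calls needed an adjusted p below 0.05 together with a log2 fold change of 1 or more in either direction. CPM values were scaled by TMM over all 69 libraries, so that folds of the fits can differ slightly from ratios of CPM. The filter on few reads lets genes with a handful of reads be tested, and no fold is given for Edn2 and Ecel1.

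Differences between stimuli, drivers and sexes were set for members called in at least 1 of the effects compared; they were given for all 9 members, the rest and the sex difference of ischemia after the values were seen. Pathway genes were named where called in a male injury comparison, and those named in females were chosen after their values were seen. The members and lists were chosen with earlier results of these data known. Alternatives were DESeq2 1.42.0, other normalization and filters, no fold threshold, sex, the series of library numbers, a replicate block and leaving out each library. The fit was tested on simulated data. Gene positions come from GENCODE, promoters from RefSeq (GRCm38.p6).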

Additional observations from a re-analysis of the deposited data

Results flagged for a closer look

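Single libraries that lay far from the rest of their group were looked for in 80 sets of 4 to 10 libraries, and 6 were found. The cutoffs give about 1 in 20 by chance for independent sets with a normal spread. These sets partly overlap, since that of all Hoxb7Cre controls holds those by sex, so this rate is only a rough guide. Smaller and larger sets were not examined. In male Hoxb7Cre iAKI pulldowns, 1 library (replicate 5) held 9.25 CPM of Edn1, the next 3.29, and the same library held 5.12 CPM of Ednra, the next 2.45. In male Atp6b1v1Cre controls the lowest library held 2.55 CPM of Ednra and the next 4.59. Nos2 stood apart in 3 sets: 0.635 CPM in 1 of 10 Hoxb7Cre controls (next 0.309), 0.383 CPM in 1 female Atp6b1v1Cre control (next 0.110) and 0.297 CPM in 1 male Atp6b1v1Cre control (next 0.168), each on at most 17 reads.

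Effects that differed between groups by edgeR's test of the difference itself were the following, on the log2 scale. Between sexes in Hoxb7Cre pulldowns, females minus males, the effect of ischemia differed for Edn1 (-3.60), Edn3 (1.61), Ednra (-1.62) and Nos3 (-1.75), and that of volume depletion for Edn1 (-2.60) and Nos3 (-2.17). Between drivers in males, Hoxb7Cre minus Atp6b1v1Cre, the effect of volume depletion differed for Ednrb (1.84) and Nos3 (1.41), and that of ischemia for Edn3 (-1.35) and Ednra (1.38). Edn2 is left out here because it rested on few reads.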

How the results depend on the processing

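Members called after volume depletion in male Hoxb7Cre pulldowns numbered 6, 4 to 7 when 1 library was left out, 3 with both sexes, and 0 in females with or without vAKI Atp6b1v1Cre replicate 5. After ischemia there were 0, against 1 by DESeq2, 2 without a fold threshold, 2 within series A, 3 with series as a covariate and 0 to 1 with 1 library left out. For volume depletion in Atp6b1v1Cre pulldowns, 0 became 1 by DESeq2, within series A, with series as a covariate, without a fold threshold and in females without replicate 5, and 0 to 2 with 1 library left out. The driver difference had 2 for either stimulus, against 0 with both sexes or in females and 1 to 3 (volume depletion) and 0 to 3 (ischemia) with 1 library left out. Volume depletion minus ischemia had 4 with Hoxb7Cre, against 1 in females and 2 to 4 with 1 library left out, and 1 with Atp6b1v1Cre, against 2 in females and 0 to 3. The sex difference in Hoxb7Cre pulldowns had 4 for ischemia and 3 for volume depletion, against 0 within series A for both, and 0 to 5 and 1 to 5 with 1 library left out, with 5 for volume depletion without Control replicate 1, vAKI replicate 5 or the Atp6b1v1Cre vAKI replicate 5 and 1 without vAKI replicate 7. For Hoxb7Cre against total RNA, 1 became 2 in males and 4 without a fold threshold, for Atp6b1v1Cre 3 became 6 without one, and between the pulldowns 0 became 2 in males and 1 without one. Ischemia in Atp6b1v1Cre gave 0 under each of 34 alternatives.

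Log2 fold changes that turned direction did so mostly in females. Their values, the same with and without replicate 5, were -2.12 (Edn1), 0.69 (Edn3) and -0.71 (Ednra) for ischemia and -0.08 (Edn1), 0.09 (Edn3), 0.25 (Cav1) and 0.24 (Slc7a3) for volume depletion in Hoxb7Cre pulldowns. In females the driver difference of Nos3 after volume depletion was -0.47 and those of Edn1 and Ednra after ischemia -2.11 and -0.27, and Edn1 was 0.21 in Hoxb7Cre pulldowns against total RNA and -0.19 between the pulldowns. With both sexes, Edn1 after ischemia was -0.14 and its driver difference -0.40. Ednrb after volume depletion in Atp6b1v1Cre pulldowns was -0.03 within series A and -0.09 to 0.12 with 1 library left out. Of 120 fold changes of 8 members, 75 passed the call in no fit, and 45 of these changed sign under some alternative. The cause of these changes was not tested. Reads limit Edn2 (at most 4 per library) and Nos2.

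Over 8 pairs of libraries with the same replicate number, the mean correlation of deviations from the group means was -0.106, and 1 exceeded 0.1. Over 72 pairs with other numbers it was 0.012, and 21 exceeded 0.1. The labels do not say what replicate numbers mark, and so few pairs cannot settle it. With the replicate block, 1 member was called in the driver difference of volume depletion and 0 in that of ischemia, where Edn1 turned to -0.09, 2 in volume depletion minus ischemia with Atp6b1v1Cre, 2 after volume depletion in Atp6b1v1Cre pulldowns, 2 in Hoxb7Cre pulldowns against total RNA and 1 between the pulldowns.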
